A study of Homo sapiens with 4 samples.

Results

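The enzymes that add methyl groups to histone lysines, or remove them, were described in 4 RNA-seq libraries of ovarian cancer cell lines. Members were the symbols that start with KDM, KMT or SETD followed by a digit, plus ASH1L, NSD1, EHMT1, EHMT2, SUV39H1, SUV39H2, DOT1L and PRDM2. Hyphenated symbols and pseudogenes were left out, and of the KDM5 genes those other than KDM5A and KDM5B were not analysed here, which gave 43 of the 52402 symbols in the count tables. Of these, 40 were measured in both lines, with at least 1 CPM (counts scaled to library size and composition) in at least 1 library of each pair. KDM4E and KDM4F had no count in any library. EHMT2, the gene of the H3K9 methyltransferase G9a, stood in 7 rows of the table with 1 count in all, and its level is not read here, since the counting of reads shared by several rows is not described.

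Histone lysine methylation is written by SET-domain enzymes, with DOT1L as the exception in fold, and is erased by the flavin-dependent enzymes KDM1A and KDM1B and by the JmjC-domain enzymes, which use iron, oxygen and 2-oxoglutarate. Methylation of H3K4 marks promoters and enhancers, that of H3K36 and H3K79 marks transcribed genes, and that of H3K9, H3K27 and H4K20 is found in silent chromatin. Silencing of endogenous retroviruses runs largely through H3K9 methylation.

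The groups were OVCAR3 KO, OVCAR3 mock, SKOV3 KO and SKOV3 mock, with 1 library each. KO cells carried a CRISPR-Cas9 knockout of HERV-K119 env, the envelope gene of an endogenous retrovirus, and mock cells were the controls of the same line. Every culture, controls included, had received 100 µg/mL hygromycin for 2 days from about 18 h after transfection. Whether the knockout cells were a clone or a pool is not given in the sources used here. With 1 library per group, differences within a line could not be checked against replicates and carry no p-value. Ratios are log2 of KO over mock, computed after adding a prior count of 2. Brackets hold exact 95% counting intervals of the count ratio, which cover counting error only, and a member was called higher or lower at an absolute log2 ratio of at least 1.

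The OVCAR3 KO library stood apart from the other 3. Total counts ran between 15145483 and 22057693. Mitochondrially encoded genes held 21.9% of the counts in OVCAR3 KO, against 5.16% to 5.93% in the others, and the nuclear RNAs NEAT1 and MALAT1 summed to 1811 CPM there, against 168 CPM in OVCAR3 mock. The 5 epithelial markers EPCAM, KRT8, KRT18, KRT19 and CDH1 were detected in all libraries, with a sum of 1966 CPM in OVCAR3 KO, 7303 CPM in OVCAR3 mock, 5031 CPM in SKOV3 KO and 5404 CPM in SKOV3 mock. The 4 immune markers summed to 8.62 CPM in OVCAR3 KO, 15.3 CPM in OVCAR3 mock, 34.9 CPM in SKOV3 KO and 35.4 CPM in SKOV3 mock, nearly all of it CD68, a lysosomal gene, with PTPRC and CD3E at 0 in every library. The sum of 5 fibroblast and mesenchymal markers lay between 19.4 and 36.1 CPM, with COL3A1 at 0 throughout, and that of 3 endothelial markers between 0.221 and 1.28 CPM. VIM, of the mesenchymal list, had 0.950 CPM in OVCAR3 KO, 1.10 CPM in OVCAR3 mock, 2.35 CPM in SKOV3 KO and 1.95 CPM in SKOV3 mock. SKOV3 is known to lack CDKN2A through a homozygous deletion, yet CDKN2A had 91.2 CPM in SKOV3 KO and 90.6 CPM in SKOV3 mock, which goes against the line label. Among the other line markers, WT1 had no count in any library. MUC16 had 6.18 CPM in OVCAR3 KO, 2.74 CPM in OVCAR3 mock, 0.06 CPM in SKOV3 KO and 0.04 CPM in SKOV3 mock. In the same order ERBB2 had 32.0, 73.3, 55.7 and 58.5 CPM, and PAX8 had 3.33, 8.83, 5.64 and 4.74 CPM. The levels of WT1, MUC16, ERBB2, PAX8 and VIM were not judged against either line label. The identity of neither line was tested, so the lines are named here as labels of libraries. In bulk samples, fewer cells of a type and less RNA per cell cannot be told apart.

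In the OVCAR3 pair the demethylases were mostly lower in KO cells, while the ratios of most methyltransferases lay nearer 0. Of 16 measured demethylases, 9 were lower past the size rule and 1, KDM8, was higher, with a median log2 ratio of -1.09. Of 18 measured methyltransferases, 1 was lower (SUV39H1) and 1 was higher (SUV39H2), with a median of -0.20. The 6 members with a SET domain but no established histone methylation as their main activity (SETD3, SETD4, SETD5, SETD6, SETD9 and KMT2E) had a median of 0.40 and none past the rule. The genes with the lowest ratios lie apart in the genome (GRCh38.p14): KDM5B on chromosome 1 (202724495 to 202808421), KDM3B on chromosome 5 (138352685 to 138437027), KDM4A on chromosome 1 (43650149 to 43705518) and KDM6B on chromosome 17 (7834217 to 7854796). Summed over the demethylases, the level was 617 CPM in OVCAR3 KO and 1184 CPM in OVCAR3 mock. The sum over the methyltransferases was 910 CPM in OVCAR3 KO and 1027 CPM in OVCAR3 mock.

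These counts stand against a broad difference between the OVCAR3 libraries. Of the measured protein-coding genes, 13% were called higher and 18.2% lower, and of all 15560 measured genes 22.5% were called higher and 15.4% lower. Over all 40 members, 2 (5%) were called higher and 10 (25%) lower, and the share called lower was 56.2% over the demethylases and 5.56% over the methyltransferases. The median over the members was -0.25, against -0.02 over protein-coding genes and 0.16 over all measured genes. Counting intervals lay above 0 for 13 members (32.5%) and below 0 for 21 (52.5%), beside 38.6% and 41.3% of protein-coding genes. The mitochondrial share and the nuclear RNAs differed between the same 2 libraries that give every ratio of this pair. Their part in the ratios was not tested. With mitochondrial rows left out of the counts and the scaling, 2 members were higher and 10 lower, with a median of -0.25.

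**Figure D1:**
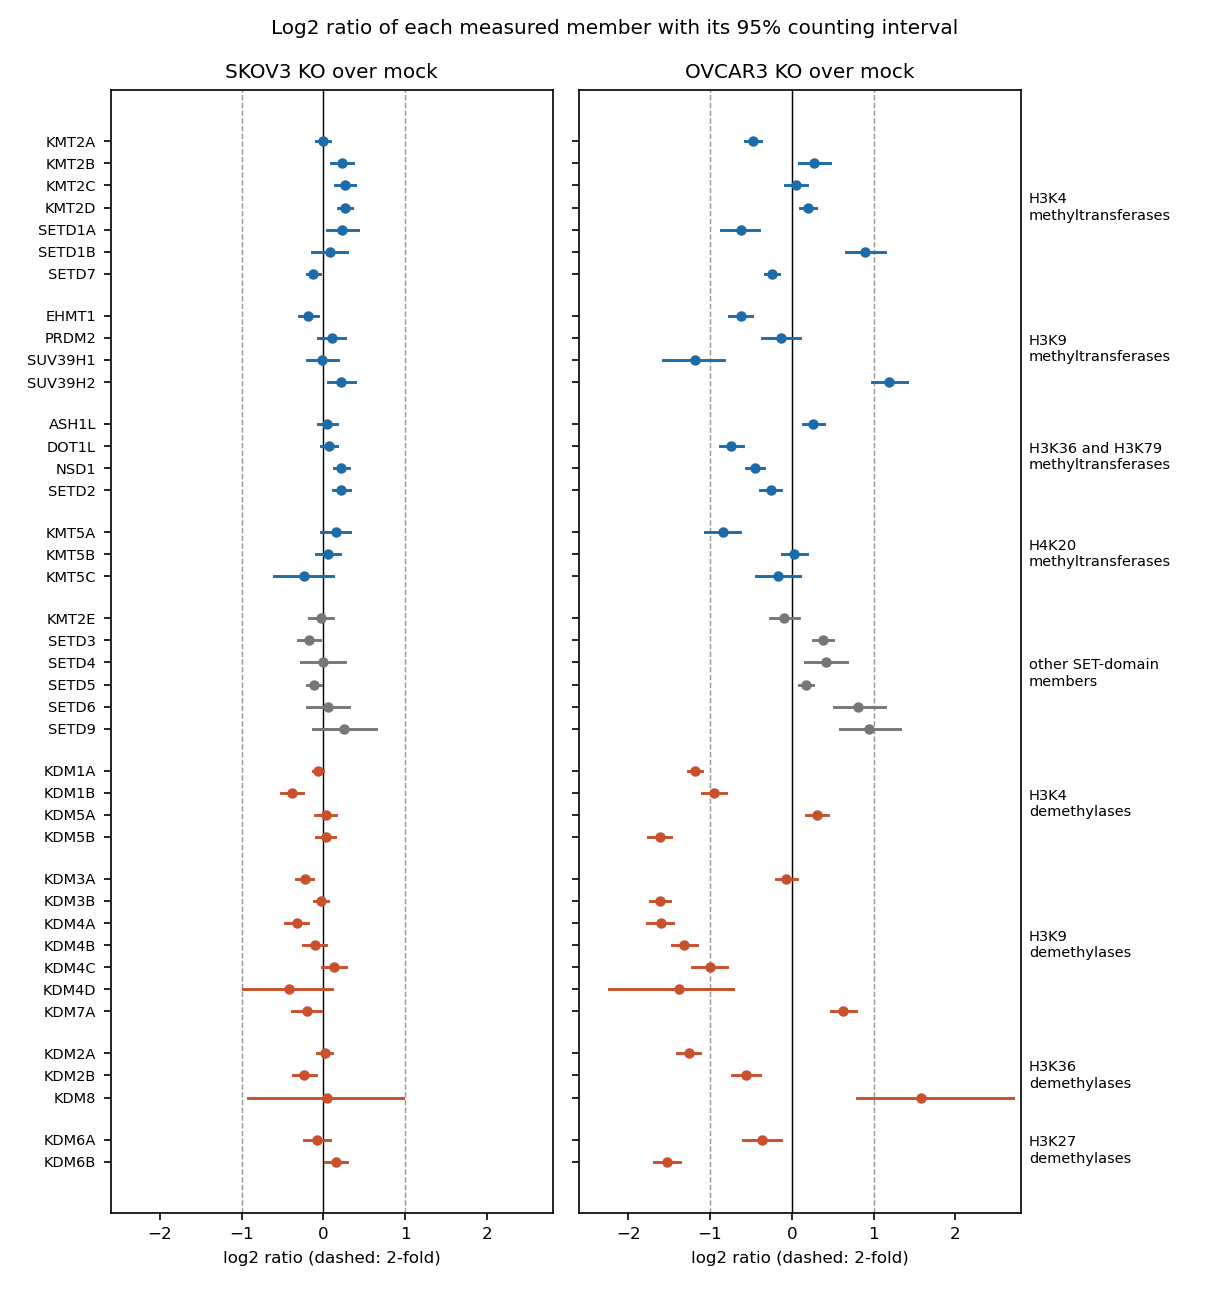
Log2 ratios of KO over mock for the 40 measured members, grouped by enzyme class, in the OVCAR3 pair and in the SKOV3 pair, with exact 95% counting intervals as bars and the size rule as dashed lines. In the OVCAR3 pair the ratios run from -1.61 to 1.58 and 10 members lie past the lower line, whereas in the SKOV3 pair all members lie between -0.42 and 0.27.

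The H3K4 demethylases comprise the flavin enzymes and the KDM5 enzymes. KDM5B, a JmjC demethylase of trimethylated H3K4, had 36.7 CPM in OVCAR3 KO and 112 CPM in OVCAR3 mock, against 67.9 CPM in SKOV3 KO and 66.6 CPM in SKOV3 mock. OVCAR3 KO was the lowest library and OVCAR3 mock the highest. The OVCAR3 ratio was -1.61 (-1.76 to -1.48), 3.06-fold lower in KO cells, and the SKOV3 ratio was 0.03 (-0.09 to 0.14). Its paralog KDM5A did not share this, with 63.2 CPM in OVCAR3 KO and 51.1 CPM in OVCAR3 mock, a ratio of 0.31 (0.17 to 0.44), and 54.5 CPM in SKOV3 KO and 53.4 CPM in SKOV3 mock. The OVCAR3 ratio of KDM5A was 0.01 at the lowest over the scalings, and 0.09 with a trend on GC content and length removed. KDM1A, which encodes LSD1, had 109 CPM in OVCAR3 KO and 247 CPM in OVCAR3 mock, a ratio of -1.18 (-1.26 to -1.09), and 216 CPM in SKOV3 KO and 226 CPM in SKOV3 mock, a ratio of -0.07. Per length of the longest transcript KDM1A was the most abundant member in all 4 libraries, at 35.7 and 80.7 CPM per kb in OVCAR3 KO and OVCAR3 mock, and 70.7 and 74.0 CPM per kb in SKOV3 KO and SKOV3 mock. KDM1B, the other flavin enzyme, lay just short of the size rule with 36.4 CPM in OVCAR3 KO and 70.5 CPM in OVCAR3 mock, a ratio of -0.95 (-1.10 to -0.80). It was among the members with the most negative ratios in SKOV3 too, at 44.5 CPM in KO and 58.0 CPM in mock cells, -0.38 (-0.52 to -0.25).

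The H3K9 demethylases had a median of -1.31 in OVCAR3, with 5 of 7 measured members called lower, beside 18.2% of protein-coding genes. With a trend on GC content and length removed the median was -0.90, with 3 lower. KDM3B had 45.5 CPM in OVCAR3 KO and 139 CPM in OVCAR3 mock, a ratio of -1.61 (-1.74 to -1.49), and 116 CPM in SKOV3 KO and 118 CPM in SKOV3 mock. Its paralog KDM3A, a gene known to respond to hypoxia, had 64.5 CPM in OVCAR3 KO and 67.6 CPM in OVCAR3 mock, a ratio of -0.07 (-0.19 to 0.06). Of the KDM4 enzymes, which remove H3K9 trimethylation and in part that of H3K36, KDM4A had 29.2 CPM in OVCAR3 KO and 88.9 CPM in OVCAR3 mock, with 38.1 CPM in SKOV3 KO and 47.8 CPM in SKOV3 mock. Its ratios of -1.60 (-1.76 to -1.45) in OVCAR3 and -0.33 (-0.48 to -0.18) in SKOV3 were both below 0. KDM4B had 32.5 CPM in OVCAR3 KO and 81.0 CPM in OVCAR3 mock, a ratio of -1.31 (-1.47 to -1.16), and 41.7 CPM in SKOV3 KO and 45.0 CPM in SKOV3 mock. For KDM4C the values were 18.0 CPM in OVCAR3 KO and 36.1 CPM in OVCAR3 mock, which put it at the threshold itself, with an interval from -1.22 to -0.79, and 42.7 CPM in SKOV3 KO and 39.2 CPM in SKOV3 mock. KDM4D was scarce, with 21 counts (1.43 CPM) in OVCAR3 KO, 64 counts (3.90 CPM) in OVCAR3 mock, 45 counts (2.85 CPM) in SKOV3 KO and 87 counts (3.85 CPM) in SKOV3 mock. Its OVCAR3 ratio was -1.38 (-2.24 to -0.72). KDM7A, which acts on H3K9 and H3K27, was the exception of the class in direction, with 59.7 CPM in OVCAR3 KO and 38.5 CPM in OVCAR3 mock, a ratio of 0.63 (0.48 to 0.78), or 0.14 with that trend removed. In SKOV3 it had 25.9 CPM in KO and 29.9 CPM in mock cells, -0.21 (-0.39 to -0.03).

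The H3K27 demethylases differed in size. KDM6B, also called JMJD3 and known as a gene induced in inflammation, had 27.6 CPM in OVCAR3 KO and 79.2 CPM in OVCAR3 mock, a ratio of -1.52 (-1.69 to -1.36). In SKOV3 it had 48.5 CPM in KO and 43.5 CPM in mock cells, a ratio of 0.15 (0.02 to 0.29). Its X-linked paralog KDM6A, or UTX, had 17.9 CPM in OVCAR3 KO and 23.0 CPM in OVCAR3 mock, -0.36 (-0.60 to -0.14). Of the H3K36 demethylases, KDM2A, a CpG-binding enzyme, had 40.9 CPM in OVCAR3 KO and 98.1 CPM in OVCAR3 mock, -1.26 (-1.40 to -1.13), and 105 CPM in SKOV3 KO and 104 CPM in SKOV3 mock. KDM2B, which recruits a Polycomb complex to CpG islands, had 32.1 CPM in OVCAR3 KO and 47.2 CPM in OVCAR3 mock, -0.56 (-0.72 to -0.39; 0.03 with a trend on GC content and length removed), and 41.7 CPM in SKOV3 KO and 49.0 CPM in SKOV3 mock, -0.23 (-0.38 to -0.09). KDM8, a JmjC protein whose demethylase activity is debated, had few counts, with 41 counts (2.78 CPM) in OVCAR3 KO and 14 counts (0.852 CPM) in OVCAR3 mock, a ratio of 1.58 (0.80 to 2.70), and with 18 counts in SKOV3 KO and 25 counts in SKOV3 mock.

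**Figure D2:**
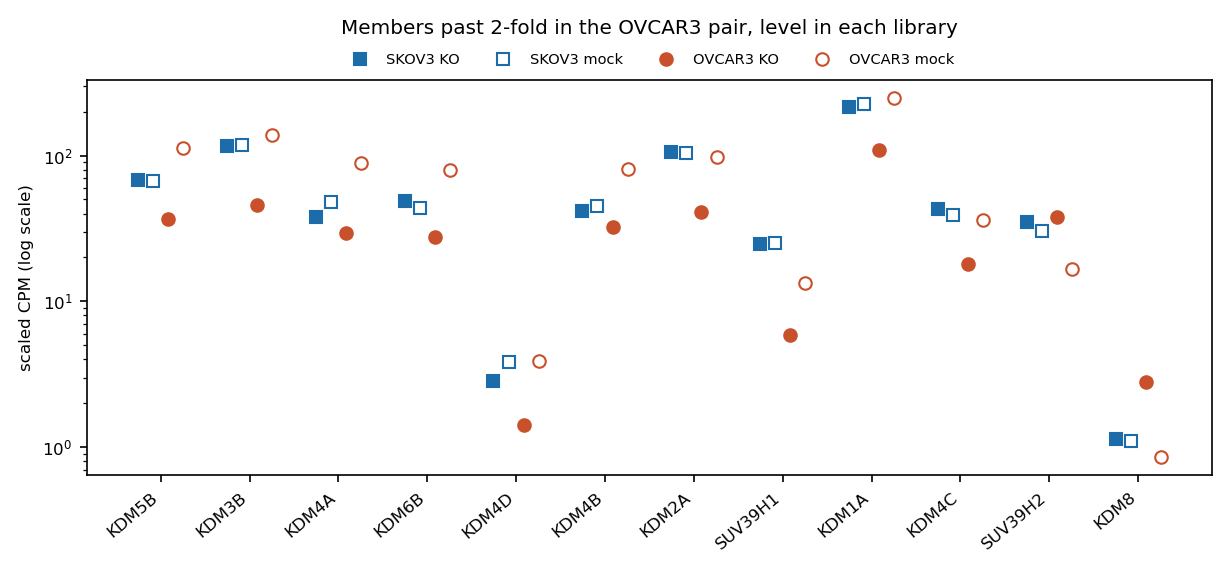
Scaled CPM (log axis) of the members called in the OVCAR3 pair, in the 4 libraries, which are the points. For the 10 lower members OVCAR3 KO is the lowest point, as for KDM5B with 36.7 CPM in KO and 112 CPM in mock cells, whereas it is the highest point for SUV39H2 and KDM8. The members shown were picked by the OVCAR3 ratio, so these positions follow in part from the call.

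The OVCAR3 KO library was the lowest of the 4 for 24 of the 40 members, for 13 of 16 demethylases and for 10 of 18 methyltransferases. It was the lowest for each of the 10 members called lower. For 7 of these 10 the OVCAR3 mock library was also the highest. The counts among these 10 follow in part from the call, which picked a low OVCAR3 KO level beside OVCAR3 mock. Counts of the lowest and highest library were not made over all genes. KDM4A, KDM6B, KDM4B and KDM5B had ratios of OVCAR3 mock over SKOV3 mock of 0.89, 0.86, 0.85 and 0.76. No member passed the size rule between the mock libraries, where 9.48% of protein-coding genes were called higher in OVCAR3 mock and 4.17% lower (9.47% and 5.52% of all measured genes), and the members had a median of 0.01 with a range from -0.90 for SUV39H1 to 0.93 for KMT5C.

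The methyltransferases of H3K9 held the 2 calls of the writers, in opposite directions. SUV39H1, which trimethylates H3K9 in pericentric heterochromatin, had 5.84 CPM in OVCAR3 KO and 13.4 CPM in OVCAR3 mock, a ratio of -1.18 (-1.57 to -0.83), and 24.8 CPM in SKOV3 KO and 25.1 CPM in SKOV3 mock. SUV39H2, its paralog of the same activity, had 37.9 CPM in OVCAR3 KO and 16.6 CPM in OVCAR3 mock, a ratio of 1.19 (0.98 to 1.41), and 35.3 CPM in SKOV3 KO and 30.3 CPM in SKOV3 mock, a ratio of 0.22 (0.06 to 0.38). With scaling over all symbols its OVCAR3 ratio was 0.90, short of the rule. The OVCAR3 ratios of the pair differed by -2.37 (SUV39H1 minus SUV39H2), and their counting intervals did not overlap. SUV39H2 overlaps exons of DCLRE1C on the opposite strand, and DCLRE1C had 513 counts in OVCAR3 KO and 280 in OVCAR3 mock. The strand setting of the counting is not given, so reads of the overlap cannot be told apart. Other members overlap genes on the opposite strand too. In OVCAR3 KO, KDM2B had 473 counts beside 670 for RNF34, and DOT1L had 633 beside 692 for PLEKHJ1. The OVCAR3 mock counts were 776 beside 619, and 1180 beside 851. KMT2E had 472 counts in OVCAR3 KO beside 915 for SRPK2, and KDM5A had 931 beside 301 for CCDC77. In OVCAR3 mock these were 561 beside 1286, and 840 beside 192. EHMT1, the partner of G9a, had 46.4 CPM in OVCAR3 KO and 71.5 CPM in OVCAR3 mock, -0.62 (-0.76 to -0.49), and 66.6 CPM in SKOV3 KO and 75.6 CPM in SKOV3 mock, -0.18 (-0.30 to -0.07). With a trend on GC content and length removed, its OVCAR3 ratio was -0.22. PRDM2, or RIZ, had -0.13 in OVCAR3 and 0.10 in SKOV3.

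The promoters of the KDM5 and SUV39H pairs are shown as examples of paralogs of the same activity with ratios of opposite sign in OVCAR3. KDM5A was not called. Of other related pairs, without regard to activity, signs were also opposite for SETD1A and SETD1B, KMT2A and KMT2B, and KMT5A and KMT5B. None of these 3 contrasts held under every setting. With a trend on GC content and length removed, SETD1A had 0.05 and KMT5B -0.31. KMT2B was -0.01 at the lowest over the scalings, and the counting interval of KMT5B (-0.12 to 0.18) included 0. Each promoter shown is the RefSeq sequence of GRCh38.p14 from 250 bases before to 50 bases after a start. It runs 5′ to 3′ on the strand of the gene, with CpG dinucleotides in capitals.
KDM5B promoter, chr1:202808372-202808671, minus strand: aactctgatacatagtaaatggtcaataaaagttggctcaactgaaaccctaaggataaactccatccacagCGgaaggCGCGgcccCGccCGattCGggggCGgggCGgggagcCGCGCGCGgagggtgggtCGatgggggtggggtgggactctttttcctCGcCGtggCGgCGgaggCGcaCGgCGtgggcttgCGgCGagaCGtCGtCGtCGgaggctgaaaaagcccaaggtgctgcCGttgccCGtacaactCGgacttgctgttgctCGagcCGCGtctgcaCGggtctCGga
KDM5A promoter, chr12:389271-389570, minus strand: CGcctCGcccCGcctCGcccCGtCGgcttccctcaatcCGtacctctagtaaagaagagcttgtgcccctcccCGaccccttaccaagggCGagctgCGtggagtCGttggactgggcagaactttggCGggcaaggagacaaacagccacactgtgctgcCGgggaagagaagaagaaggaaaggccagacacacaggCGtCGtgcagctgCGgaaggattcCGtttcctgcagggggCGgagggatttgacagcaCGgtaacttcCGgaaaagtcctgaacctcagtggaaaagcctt
SUV39H1 promoter, chrX:48696484-48696783, plus strand: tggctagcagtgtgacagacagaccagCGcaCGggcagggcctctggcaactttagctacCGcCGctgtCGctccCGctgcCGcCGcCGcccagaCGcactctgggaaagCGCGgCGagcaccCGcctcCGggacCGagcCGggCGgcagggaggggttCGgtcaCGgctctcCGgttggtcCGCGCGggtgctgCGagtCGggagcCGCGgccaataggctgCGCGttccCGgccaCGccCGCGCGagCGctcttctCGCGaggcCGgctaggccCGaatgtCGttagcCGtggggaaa
SUV39H2 promoter, chr10:14878616-14878915, plus strand: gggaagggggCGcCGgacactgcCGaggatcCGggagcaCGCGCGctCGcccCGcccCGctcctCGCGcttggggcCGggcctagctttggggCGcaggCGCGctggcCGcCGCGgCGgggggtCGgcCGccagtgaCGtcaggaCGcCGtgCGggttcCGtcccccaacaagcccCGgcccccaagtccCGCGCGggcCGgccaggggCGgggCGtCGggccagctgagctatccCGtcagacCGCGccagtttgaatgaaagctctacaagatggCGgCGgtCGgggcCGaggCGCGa
They hold 34 CpG in KDM5B, 20 in KDM5A, 42 in SUV39H1 and 44 in SUV39H2, so CpG-dense starts are found in SUV39H1, called lower, and in SUV39H2, called higher. RefSeq gives SUV39H1 a further start, whose window holds 7 CpG. The table held 59 promoters of 40 of the 43 members, the unmeasured EHMT2 and KDM4F included and DOT1L, SETD1B and KDM4E not. They had a median of 30 CpG, against 14 over all 35116 promoters, and a median GC content of 69.3%, against 58.7%. Searched on both strands, ACGTG (the core of hypoxia response elements) was found in 20.3% of member promoters and 21.4% of all, TGACG (the half-site of ATF and CREB factors) in 13 of the 59 and 24.6% of all, and TGANTCA (the AP-1 site) in 5.08% and 7.71%. A match of letters is a description and not a binding site.

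The H3K4 methyltransferases, the catalytic subunits of the MLL and SET1 complexes and SETD7, had a median ratio of 0.05 in OVCAR3 and 0.23 in SKOV3, with none past the rule. With the trend on GC content and length removed, the OVCAR3 median was 0.05, with 1 of 7 past the rule (SETD1B, higher) and 3 below 0. KMT2D, an enhancer H3K4 monomethyltransferase, had 113 CPM in OVCAR3 KO and 98.7 CPM in OVCAR3 mock, 0.20 (0.10 to 0.30), and 126 CPM in SKOV3 KO and 105 CPM in SKOV3 mock, 0.27 (0.18 to 0.35). KMT2B had 33.8 CPM in OVCAR3 KO and 27.9 CPM in OVCAR3 mock, 0.28 (0.09 to 0.46), and 50.5 CPM in SKOV3 KO and 43.1 CPM in SKOV3 mock, 0.23 (0.09 to 0.37). In OVCAR3 both signs depend on the scaling, with -0.10 for KMT2D and -0.01 for KMT2B at the lowest. With that trend removed, KMT2D had 0.58 and KMT2B had 0.94 in OVCAR3. KMT2A, the MLL1 gene, had -0.47 (-0.57 to -0.37) in OVCAR3 and -0.01 in SKOV3, and KMT2C had 0.05 in OVCAR3, with -0.24 under another scaling, and 0.27 (0.15 to 0.39) in SKOV3. SETD1A and SETD1B, the catalytic subunits of the SET1 complexes, parted in OVCAR3. SETD1A had 16.8 CPM in KO and 25.9 CPM in mock cells, -0.63 (-0.86 to -0.40; 0.05 with the trend on GC content and length removed), against 28.2 CPM in SKOV3 KO and 24.0 CPM in SKOV3 mock, 0.23 (0.05 to 0.42). SETD1B had 26.9 CPM in OVCAR3 KO and 14.4 CPM in OVCAR3 mock, 0.89 (0.66 to 1.14; 1.55 with that trend removed). SETD7, which monomethylates H3K4 and non-histone proteins, had 124 CPM in OVCAR3 KO and 147 CPM in OVCAR3 mock, -0.24 (-0.33 to -0.15), and 140 CPM in SKOV3 KO and 152 CPM in SKOV3 mock, -0.12 (-0.20 to -0.05).

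The writers of H3K36 and H3K79 had ratios between -0.74 and 0.26 in OVCAR3. DOT1L, the H3K79 methyltransferase, had 43.0 CPM in OVCAR3 KO and 71.8 CPM in OVCAR3 mock, -0.74 (-0.88 to -0.60). With the trend on GC content and length removed, the OVCAR3 ratio of DOT1L was -0.06. NSD1, which writes H3K36 dimethylation, had 73.1 CPM in OVCAR3 KO and 99.8 CPM in OVCAR3 mock, -0.45 (-0.56 to -0.34), and 113 CPM in SKOV3 KO and 97.1 CPM in SKOV3 mock, 0.22 (0.13 to 0.31). SETD2, which writes H3K36 trimethylation, had 59.3 CPM in OVCAR3 KO and 70.8 CPM in OVCAR3 mock, -0.26 (-0.38 to -0.13), and 90.0 CPM in SKOV3 KO and 77.4 CPM in SKOV3 mock, 0.22 (0.12 to 0.32). Both were below the mock library in OVCAR3 and above it in SKOV3. ASH1L had 0.26 (0.14 to 0.39) in OVCAR3, and -0.03 at the lowest over the scalings. Of the H4K20 methyltransferases, KMT5A, which monomethylates H4K20, had 17.7 CPM in OVCAR3 KO and 31.8 CPM in OVCAR3 mock, -0.84 (-1.07 to -0.63), whereas KMT5B and KMT5C had 0.03 and -0.17, with -0.26 for KMT5B at the lowest over the scalings.

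The other SET-domain members had mostly positive ratios in OVCAR3, and 5 of 6 counting intervals lay above 0. The protein methyltransferase genes SETD9 and SETD6 had the largest, 0.94 (0.58 to 1.33) and 0.81 (0.51 to 1.14). SETD6 overlaps CNOT1 on the opposite strand. CNOT1 had 3292 counts in OVCAR3 KO and 5586 in OVCAR3 mock, beside 222 and 140 for SETD6. The part of shared reads in the SETD6 ratio was not tested. SETD3, an actin histidine methyltransferase, had 75.7 CPM in OVCAR3 KO and 58.1 CPM in OVCAR3 mock, 0.38 (0.26 to 0.51), and 48.1 CPM in SKOV3 KO and 54.3 CPM in SKOV3 mock, -0.17 (-0.31 to -0.04). SETD4 had 0.41 (0.16 to 0.68). SETD5 had 156 CPM in OVCAR3 KO and 138 CPM in OVCAR3 mock, 0.17 (0.09 to 0.26), with -0.12 at the lowest over the scalings, and 120 CPM in SKOV3 KO and 130 CPM in SKOV3 mock, -0.12 (-0.20 to -0.03). KMT2E had -0.09 in OVCAR3.

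In the SKOV3 pair no member was called higher or lower, where 0.607% of protein-coding genes were called higher and 0.332% lower (0.799% and 0.739% of all 13524 measured genes). The 40 ratios ran from -0.42 for KDM4D to 0.27 for KMT2D and KMT2C, with a median of 0.02, against 0.01 over protein-coding genes. Counting intervals lay above 0 for 8 members and below 0 for 10, and for 18.4% and 18.9% of protein-coding genes. The demethylases had a median of -0.07 with 10 of 16 ratios below 0, and the methyltransferases had a median of 0.09 with 13 of 18 above 0. Of the H3K9 demethylases 6 of 7 were below 0, among them KDM3A at -0.23 (-0.33 to -0.13), but only 3 had a counting interval below 0. All 4 writers of H3K36 and H3K79 were above 0, and 2 had an interval above 0. Over the 12033 measured protein-coding genes, 5858 ratios were below 0 and 6175 above. The sum over the demethylases was 961 CPM in SKOV3 KO and 1016 CPM in SKOV3 mock, and the sum over the methyltransferases was 1150 CPM in SKOV3 KO and 1082 CPM in SKOV3 mock.

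Across both lines, which is the only replication of the knockout, no member was called. In edgeR's quasi-likelihood test with the line as a block and Benjamini-Hochberg adjustment, 0 of 40 members and 0 of 13693 genes (0% in each direction) passed an adjusted p of 0.05. At an unadjusted p under 0.05 there were 73 genes higher (0.533%) and 77 lower (0.562%), and 0 members. The lowest member was KDM4A, with a log2 ratio of -0.96 and an adjusted p of 0.957 in that edgeR test. DESeq2 and limma-voom also called 0 members, with smallest adjusted p of 1.00 and 0.953. The test has 1 residual degree of freedom per gene. Of the 40 members, 26 had the same sign in both lines, 15 below 0 and 11 above. Both counting intervals lay below 0 for 6 (KDM1A, KDM1B, KDM4A, EHMT1, SETD7 and KDM2B, the last with 0.03 in OVCAR3 after the trend was removed) and above 0 for 3 (KMT2B, KMT2D and SUV39H2). These counts of shared signs and intervals were not made over all genes, so they do not show agreement between the lines. The difference between the lines was not tested for single members.

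**Figure D3:**
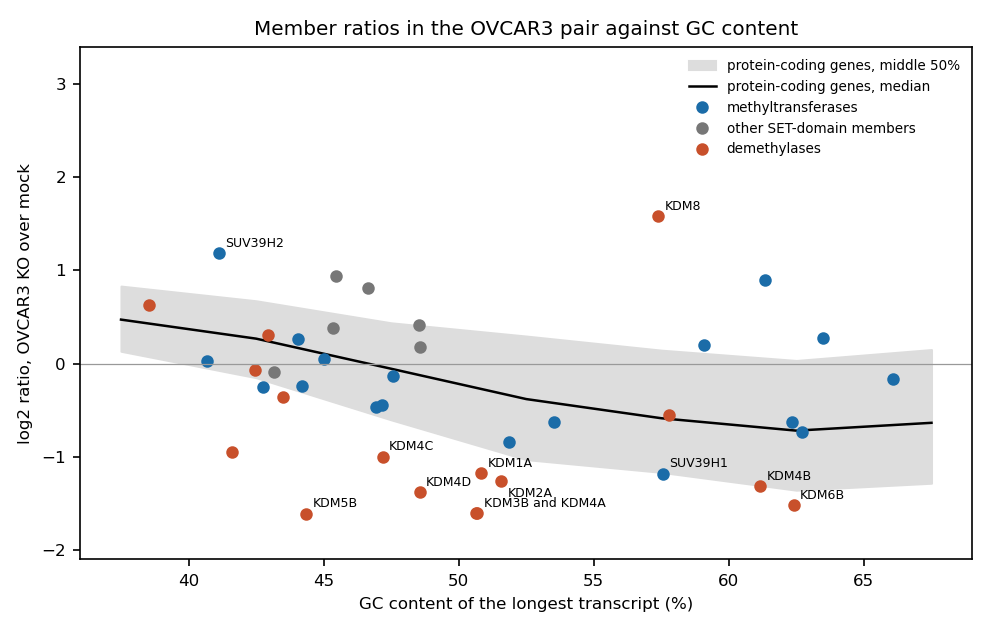
Log2 ratio in the OVCAR3 pair against the GC content of the longest transcript (in percent) for the 40 measured members as points coloured by side, with the median and the middle 50% of protein-coding genes in bins of GC content. The protein-coding median is 0.47 in the lowest bin, -0.72 at 60% to 65% and -0.64 in the highest bin. As examples of members outside the grey band, KDM5B, KDM3B and KDM4A lie below it, and SUV39H2, KDM8 and SETD1B lie above it.

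Ratios in the OVCAR3 pair moved with base composition. Spearman's correlation with GC content, given as a description across genes that share 2 libraries, was -0.42 over 12695 protein-coding genes and -0.29 over the 40 members. In SKOV3 it was 0.13 over 11999 protein-coding genes and 0.11 over the members. The median GC content was 49.6% over the demethylases and 49.7% over the methyltransferases. After a spline trend on GC content and length over protein-coding genes was removed, 6 members were lower and 2 higher in OVCAR3, where 12.7% of protein-coding genes were lower and 11.7% higher. The 6 were all demethylases, whose median was -0.87, against -0.10 over the methyltransferases. KDM5B had -1.71, KDM4A -1.35, KDM3B -1.33, KDM4D -1.31, KDM1B -1.28 and KDM1A -1.01 on this scale. KDM2A, KDM4C, KDM6B and KDM4B had -0.94, -0.90, -0.84 and -0.65, SUV39H1 had -0.73 and SUV39H2 had 0.77, all short of the rule on this scale. KDM8 had 1.99 and SETD1B 1.55. Of the 9 demethylases called lower before, 5 were among these 6, and KDM1B joined them. The sign turned for KDM2B (0.03), SETD1A (0.05), PRDM2 (0.01), KMT5C (0.31), KMT2C (-0.14) and KMT5B (-0.31).

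Lists of partner subunits, of related enzymes outside the rule and of enzymes that supply cofactors were described beside the members. In SKOV3 no gene of these lists passed the size rule. Their counts in OVCAR3 stand beside 18.2% of protein-coding genes lower and 13% higher, and 2 of 9 or 2 of 10 lower is near that share. Of the shared core of the MLL and SET1 complexes, DPY30 was higher in OVCAR3 with 76.6 CPM in KO and 35.1 CPM in mock cells, 1.13 (0.98 to 1.28), while WDR5, ASH2L and RBBP5 had -0.81, -0.62 and 0.01. Of 10 complex-specific subunits 2 were lower, HCFC1 with 26.7 CPM in OVCAR3 KO and 113 CPM in OVCAR3 mock, -2.07 (-2.24 to -1.92), and MEN1, the menin gene, with 24.4 CPM in OVCAR3 KO and 75.3 CPM in OVCAR3 mock, -1.62 (-1.80 to -1.45). Of 9 genes of the CoREST complex that holds KDM1A, GSE1 and RCOR2 were lower, at -1.17 and -1.02, and RCOR1, its scaffold, had 40.6 CPM in OVCAR3 KO and 80.8 CPM in OVCAR3 mock, -0.99. Among 9 readers and cofactors of H3K9 methylation, WIZ (-1.52) was lower, UHRF1 lay at the threshold, called lower, with 27.2 CPM in OVCAR3 KO and 54.5 CPM in OVCAR3 mock, and CBX3, the HP1 gamma gene, was higher with 475 CPM in OVCAR3 KO and 229 CPM in OVCAR3 mock, 1.05 (0.99 to 1.11). Of 7 measured partners of DOT1L in elongation, ELL (-1.87) and MLLT1 (-1.65) were lower. The upward calls of DPY30 and CBX3 lie nearer to the threshold than the change of -0.29 that scaling over all symbols made in the members' median. Among 16 related enzymes 1, SMYD5 (-1.14), was lower and the median was 0.16. With the trend on GC content and length removed, HCFC1 (-1.42), MEN1 (-1.11), ELL (-1.28) and MLLT1 (-1.01) were still lower. On that scale DPY30 (0.41), GSE1 (-0.72), RCOR2 (-0.50), WIZ (-0.84), UHRF1 (-0.59), CBX3 (0.43) and SMYD5 (-0.76) were not called, SMYD4 was called higher, and the median of the related enzymes was -0.05.

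Of the 10 cofactor genes 4 were lower and 1 was higher in OVCAR3. OGDH, which consumes 2-oxoglutarate in the citric acid cycle, had 24.7 CPM in OVCAR3 KO and 110 CPM in OVCAR3 mock, -2.14. The citrate synthase gene CS had -1.55 and AHCY, which clears S-adenosylhomocysteine left by methyltransferases, had 206 CPM in OVCAR3 KO and 515 CPM in OVCAR3 mock, -1.32. AHCYL1 was lower as well, with 96.9 CPM in OVCAR3 KO and 201 CPM in OVCAR3 mock, and D2HGDH, which oxidises D-2-hydroxyglutarate, an inhibitor of JmjC enzymes, was higher with 27.4 CPM in OVCAR3 KO and 11.3 CPM in OVCAR3 mock, 1.28. With the trend removed OGDH (-1.66) and CS (-1.45) were still lower and D2HGDH (1.91) higher, while AHCY (-0.97) and AHCYL1 (-0.91) were not called. Among genes of these lists with a summed count of at least 100, the ratios farthest from 0 in SKOV3 were -0.44 for SMYD3, -0.41 for TASP1, 0.41 for RCOR2 and 0.39 for CXXC1.

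**Figure D4:**
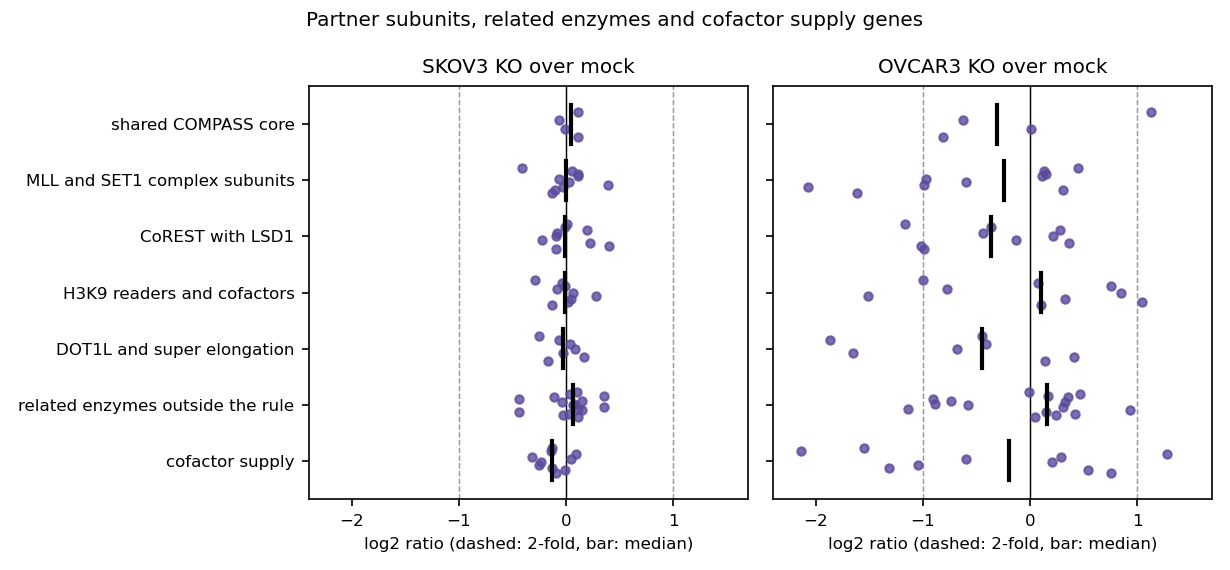
Log2 ratios of KO over mock for the measured genes of the 7 partner, related-enzyme and cofactor lists in each line, with each gene as a point and the list's median as a bar. In the SKOV3 pair no point passes a log2 ratio of 1 in size, and in the OVCAR3 pair the points spread from -2.14 for OGDH to 1.28 for D2HGDH.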

How the data were processed

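Total RNA of the 4 cultures was extracted with Trizol and made into strand-keeping libraries with the NEBNext Ultra II Directional kit, per the labels' protocols. TopHat and GRCh38 were used, per the submitters' processing notes. The sources used here name no counting tool, annotation or strand setting. The values the authors deposited are raw counts per gene symbol. The 2687 symbols in several rows were summed. No row lacked a gene name.

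Counts were scaled with TMM in edgeR 4.0.16 (R 4.3.3) over genes with at least 1 CPM in at least 2 libraries, with factors of 0.931 for OVCAR3 KO, 1.01 for OVCAR3 mock, 1.04 for SKOV3 KO and 1.02 for SKOV3 mock. Measured genes had at least 1 CPM in at least 1 library of a pair. Clopper-Pearson bounds gave the 95% intervals. The limit that a count of 0 allows, 3 counts, is 0.136 to 0.198 CPM. No molecular identifiers were used, and limits like intervals reflect counting error alone. The test over both lines used glmQLFit and glmQLFTest with the line as a block, Benjamini-Hochberg adjustment over 13693 genes and a common dispersion of 0.127. It was tested on simulated data. Nothing in the labels says that cultures were independent, so a p-value reflects only how these libraries spread, which may be technical. GC content and length came from the longest GENCODE 29 transcript, gene types and promoters from RefSeq (GRCh38.p14), which matched 88.6% of symbols. The trend on GC content and length used splines of 5 degrees of freedom each.

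Alternatives were DESeq2 1.42.0 size factors, no scaling, mitochondrial rows left out, prior counts of 0.5 and 5, other count filters, the largest row per symbol, folds of 1.5 and 3, DESeq2, limma-voom (limma 3.58.1), a robust fit and no block, and TMM over all symbols, which was added after seeing the data. Members, classes and lists were chosen with earlier results of these data known. Values in all 4 libraries were given for members past the size rule in either line or with counting intervals away from 0 in both. Partners were named by the largest absolute ratio in a pair, up to 4 per list in OVCAR3 and 2 in SKOV3, at a summed count of at least 100.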

Additional observations from a re-analysis of the deposited data

Results flagged for a closer look

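For 7 members the ratios of KO over mock had opposite signs in OVCAR3 and SKOV3, with both counting intervals away from 0. Over protein-coding genes, intervals lay above 0 for 38.6% and below 0 for 41.3% in OVCAR3. In SKOV3 the shares were 18.4% and 18.9%. How many of all genes had opposite signs in this way was not counted. With 1 library per group the difference between the lines was not tested.

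KDM6B, the H3K27 demethylase, had -1.52 in OVCAR3 and 0.15 in SKOV3. The H3K36 methyltransferases NSD1 and SETD2 had -0.45 and -0.26 in OVCAR3, and 0.22 each in SKOV3. SETD1A, of the SET1 complex, had -0.63 in OVCAR3 and 0.23 in SKOV3, but 0.05 in OVCAR3 with the trend on GC content and length removed, which ends the contrast. In the other direction, KDM7A had 0.63 in OVCAR3 (0.14 with that trend removed) and -0.21 in SKOV3, SETD3 had 0.38 in OVCAR3 and -0.17 in SKOV3, and SETD5 had 0.17 in OVCAR3, where scaling over all symbols gave -0.12, and -0.12 in SKOV3.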

How the results depend on the processing

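No paired analysis was possible because the groups share only the replicate number 1, apart from the cell line as a block in the test over both lines, which called 0 members with and without it. In SKOV3 and over both lines no alternative changed a call of a member. In OVCAR3 the median of all genes moved by -0.23 with DESeq2 size factors and by -0.32 with TMM over all symbols. The members' median of -0.25 became -0.46 and -0.54 under these, and -0.46 without SETD3, SETD4, SETD5, SETD6, SETD9 and KMT2E. The 2 members higher in OVCAR3 became 1 with DESeq2 size factors, 1 with TMM over all symbols, 1 at CPM of at least 5, 6 at a fold of 1.5 and 0 at a fold of 3. The 10 members lower became 6 with the trend on GC content and length removed and 3 at a fold of 3. Over the scalings, filters and prior counts 8 to 10 demethylases were lower, and 6 with the trend removed, 5 of them among the 9 of the reported analysis. DOT1L, KDM1B and KMT5A passed the size rule at -1.03, -1.24 and -1.13 with TMM over all symbols, and SUV39H2 fell short at 0.90. With the trend removed, DOT1L had -0.06, KDM1B -1.28 and KMT5A -0.62. Between the mock libraries, 5 members were higher and 6 lower at a fold of 1.5, and 2 were lower with the trend removed. Leaving out the OVCAR3 KO library left no residual degree of freedom over both lines and no OVCAR3 ratio, so no value without it can be given.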
